A study of Mus musculus with 2 samples.

Results

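The vascular endothelial growth factor (VEGF) family was described in the e15.5 mouse eye cup through 7 genes, the ligands Vegfa, Vegfb, Vegfc and Pgf and the receptors Kdr, Flt1 and Flt4. The 7 were taken by gene symbol from the 31053 genes of the deposited single-cell matrices, and the family was chosen with earlier results of these data known. The study asked what loss of Myrf, which encodes a membrane-bound transcription factor, does to gene expression in the retinal pigment epithelium (RPE) and the cells next to it. The genotypes compared were Myrf fl/fl embryos as controls and Rx>cre Myrf fl/fl embryos as mutants. Both genotypes carried the floxed Myrf alleles, and only the mutants carried Cre, which the Rx element directs to the early eye field that forms the neural retina and RPE. Each genotype was 1 library of 3 pooled eye cups, dissociated with papain after the cornea, lens and optic nerve had been taken off.

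VEGF-A is the main growth factor for blood vessels and signals through the receptor tyrosine kinase VEGFR2, encoded by Kdr. VEGFR1, encoded by Flt1, binds VEGF-A, VEGF-B and placental growth factor (Pgf) tightly but signals weakly, and VEGFR3, encoded by Flt4, is the receptor of VEGF-C and acts in lymphatic and sprouting blood vessels. In the eye, VEGF-A made by the RPE maintains the choriocapillaris behind it, the neuropilins Nrp1 and Nrp2 act as co-receptors, and retinal progenitors as well as endothelium are known to express Kdr.

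The members lie on 6 chromosomes of the GRCm38 build. Vegfa (ENSMUSG00000023951) spans bases 46016993 to 46032369 of chromosome 17 and Vegfb (ENSMUSG00000024962) spans 6982473 to 6987651 of chromosome 19. Vegfc (ENSMUSG00000031520) lies at 54077606 to 54187096 of chromosome 8 and Pgf (ENSMUSG00000004791) at 85166635 to 85177790 of chromosome 12. Kdr (ENSMUSG00000062960) at 75932827 to 75978458 and Flt1 (ENSMUSG00000029648) at 147561604 to 147726011 share chromosome 5, and Flt4 (ENSMUSG00000020357) lies at 49609263 to 49652739 of chromosome 11.

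The 3 receptors were the members with their highest level in endothelium, so the 250 bases before each RefSeq start are shown (GRCm38.p6, 5′ to 3′ on the gene's own strand). The windows are chr5:75978456-75978705 on the minus strand for Kdr, chr5:147726012-147726261 on the minus strand for Flt1 and chr11:49609429-49609678 on the plus strand for Flt4. Capitals mark GGAA on either strand, the core letters bound by ETS factors, a family active in endothelium.
Kdr: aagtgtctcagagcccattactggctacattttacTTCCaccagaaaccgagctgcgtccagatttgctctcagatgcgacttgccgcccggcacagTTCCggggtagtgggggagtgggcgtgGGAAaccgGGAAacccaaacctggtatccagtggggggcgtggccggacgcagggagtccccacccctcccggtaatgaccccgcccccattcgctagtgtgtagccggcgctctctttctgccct
Flt1: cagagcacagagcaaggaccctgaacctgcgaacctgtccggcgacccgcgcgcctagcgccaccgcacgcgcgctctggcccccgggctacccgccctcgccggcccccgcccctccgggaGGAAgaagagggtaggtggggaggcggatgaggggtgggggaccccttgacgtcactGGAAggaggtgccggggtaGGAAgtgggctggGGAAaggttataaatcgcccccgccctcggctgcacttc
Flt4: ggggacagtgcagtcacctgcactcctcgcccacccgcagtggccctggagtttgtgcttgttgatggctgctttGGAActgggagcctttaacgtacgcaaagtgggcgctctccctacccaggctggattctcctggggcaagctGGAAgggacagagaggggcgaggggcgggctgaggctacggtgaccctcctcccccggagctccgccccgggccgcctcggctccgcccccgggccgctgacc
The Kdr and Flt1 windows each held 4 matches to GGAA and the Flt4 window held 2. Of 32851 promoter windows of this length, 93.4% held at least 1 match, with a median of 3, so these letters do not set the receptors apart. The longer string AGGAAG, which contains the core, occurred 2 times in the Flt1 window, was not in the Kdr or Flt4 window, and was in 29.5% of all windows. The string TATAAA of a TATA box occurred once before Flt1 and is found in 12.4% of windows. The GC box letters GGGCGG occurred 2 times before Kdr and 3 times each before Flt1 and Flt4, against 32.7% of windows with any. ACGTG, the core letters bound by hypoxia-inducible factors, was not in the 3 receptor windows and was in 16.6% of all windows. Of the 2 windows of Vegfa, the one just before the gene span (46032378 to 46032627) did not hold it. The other (46025164 to 46025413), which lies inside the span, held 1 match. All motifs were searched on both strands, and a match is a string of letters, not a shown binding site.

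The control library held 13017 barcodes and 132436812 unique molecular identifiers (UMIs), and the mutant library 13880 barcodes and 135678970 UMIs. After filters on quality and doublets, 11576 control and 12668 mutant cells remained, with median depths of 9824 and 8956.5 UMIs. The libraries shared 69 barcodes, of which 62 control and 65 mutant ones were kept. The pools differed in sex, since 0.0259% of control cells against 41.8% of mutant cells held a UMI of a Y-linked gene, and Xist was found in 71.7% and 27.5% of cells. Sex and genotype therefore cannot be fully told apart, and each ratio between the libraries below rests on 1 library per genotype, with no replicates and no test. Levels are CPM, the gene's UMIs per 1000000 UMIs of the cells named, and all 95% intervals cover counting error only.

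Cells were clustered without the members and without the marker genes, and clusters were named from markers, giving 14 classes. The RPE-like class held 371 control and 207 mutant cells, 3.20% and 1.63% of those kept, and the mutant ones were shallower, with a median of 3564 UMIs against 6747. The neural retina-like compartment, 5 classes from progenitors to neurons, held 4344 and 6220 cells. The endothelial-like class was small, with 169 and 132 cells. The mesenchyme-like compartment, the periocular mesenchyme outside the RPE, held 2431 and 1785 cells.

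The RPE marker list summed to 14305 CPM in control and 14112 CPM in mutant RPE-like cells, with Rpe65, the retinoid isomerase of mature RPE, at 0 UMIs in both and Rgr at 0 in the mutant. Myrf was found at 76.6 CPM (293 UMIs) in control and 30.3 CPM (58 UMIs) in mutant RPE-like cells. Markers of other cells were higher in the mutant RPE-like cells: the mesenchyme list summed to 1067 CPM against 578 CPM and the retinal progenitor list to 1402 CPM against 931 CPM, with all members of both lists detected. The erythroid list was at 6083 CPM in control and 14993 CPM in mutant RPE-like cells. It was 1672 and 2933 CPM in neural retina-like cells and 8638 and 4507 CPM in mesenchyme-like cells. Leaving haemoglobin UMIs out of the totals, an alternative chosen after seeing the data, moved none of the main ratios below. All 10 endothelial markers were found in endothelial-like cells, with sums of 5703 and 5531 CPM. The mutant endothelial-like sum also held 16116 CPM of erythroid markers, against 328 CPM in the control, and 1 mutant cell had 69.2% of its UMIs from haemoglobin genes. Erythroid-like cells, which should lack the family, gave the background level for each gene.

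**Figure D1:**
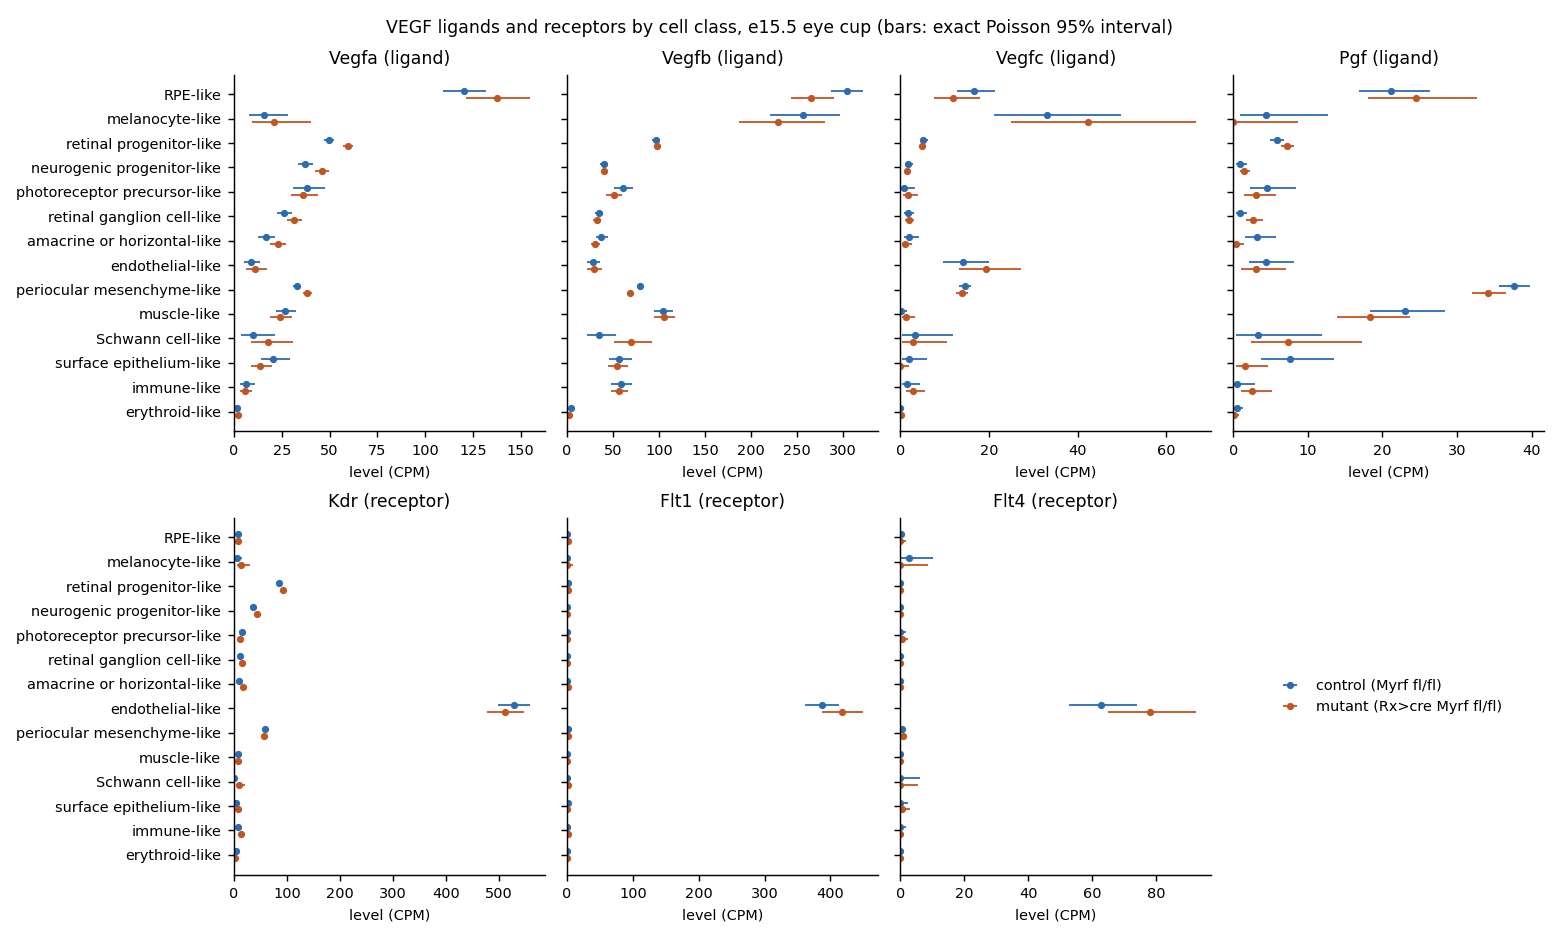
Level of each VEGF family gene (CPM) in the named cell classes of the control and mutant libraries, 1 library per genotype, with exact Poisson 95% intervals as bars. Vegfa and Vegfb stood highest in RPE-like cells, Pgf in mesenchyme-like cells, and the 3 receptors in endothelial-like cells, in both libraries.

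Vegfa was highest in RPE-like cells in both libraries. Its level was 120 CPM (460 UMIs, interval 110 to 132) in control and 137 CPM (263 UMIs, 121 to 155) in mutant RPE-like cells. Neural retina-like cells held 40.9 CPM in control and 49.3 CPM in mutant, mesenchyme-like cells 32.7 and 38.2 CPM, and endothelial-like cells only 8.85 and 10.9 CPM, from 20 and 18 UMIs. The RPE-like level was therefore 2.94-fold (2.65 to 3.26) the neural retina-like level in the control and 2.79-fold (2.45 to 3.16) in the mutant. Against endothelial-like cells it was 13.6-fold in the control and 12.6-fold in the mutant. Erythroid-like cells gave 1.35 and 1.98 CPM.

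Retinal progenitor-like cells came second in Vegfa at 49.7 and 59.8 CPM, below RPE-like cells in both libraries. Their interval overlapped that of photoreceptor precursor-like cells in the control (47.0 to 52.5 against 30.6 to 47.6) and no other class in the mutant. Neurogenic progenitor-like cells (37.0 and 45.8 CPM), photoreceptor precursor-like cells (38.4 and 36.2 CPM) and mesenchyme-like cells followed, with intervals that overlapped from each to the next in at least 1 library. Retinal ganglion cell-like cells held 26.1 and 31.5 CPM, and progenitor-like cells were 1.91-fold (1.63 to 2.24) above them in the control and 1.90-fold (1.68 to 2.16) in the mutant. Amacrine or horizontal-like cells held 16.8 and 22.8 CPM. Melanocyte-like cells, the other pigmented class, held 15.9 and 21.1 CPM of Vegfa from 11 and 9 UMIs, with intervals (7.93 to 28.4 and 9.66 to 40.1) that leave their place in the order wide.

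Because the RPE-like cells were few, most Vegfa UMIs came from other cells. RPE-like cells gave 11.3% of Vegfa UMIs in the control library and 5.27% in the mutant library, while neural retina-like cells gave 47.9% and 64.9%. At full depth, a Vegfa UMI was found in 43.4% (control) and 37.7% (mutant) of the RPE-like class, against 1.38% and 2.51% of erythroid-like cells, whose median depths were 16830 and 16798 UMIs. With each cell reduced to 2000 UMIs, which leaves out 125 control and 83 mutant cells of the RPE-like class, Vegfa was found in 20.7% (15.8 to 26.3) and 20.1% (13.5 to 28.3). Neural retina-like cells gave 7.98% and 9.49% on the same scale.

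The Vegfa level of RPE-like cells moved with their depth. In cells of up to 5000 UMIs it was 38.8 CPM in control (10 UMIs in 165 cells) and 41.6 CPM in mutant (8 UMIs in 115 cells). Neural retina-like cells of the same depth held 61.8 and 59.5 CPM, which is within counting error of these few UMIs. Between 5000 and 10000 UMIs it reached 142 and 146 CPM, between 10000 and 20000 UMIs 156 and 125 CPM, and above 20000 UMIs 98.5 and 164 CPM. Limiting the mitochondrial share to 5% left a log2 difference between RPE-like and neural retina-like cells of 0.82 in control and 0.42 in mutant, against 1.56 and 1.48 at the 15% limit. With cells over 2000 UMIs removed, 2 and 4 RPE-like Vegfa UMIs were left and the log2 difference was -2.58 and -0.48. In the mutant, 5 cells held 20.2% of the RPE-like Vegfa UMIs, against 10.4% in the control.

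**Figure D2:**
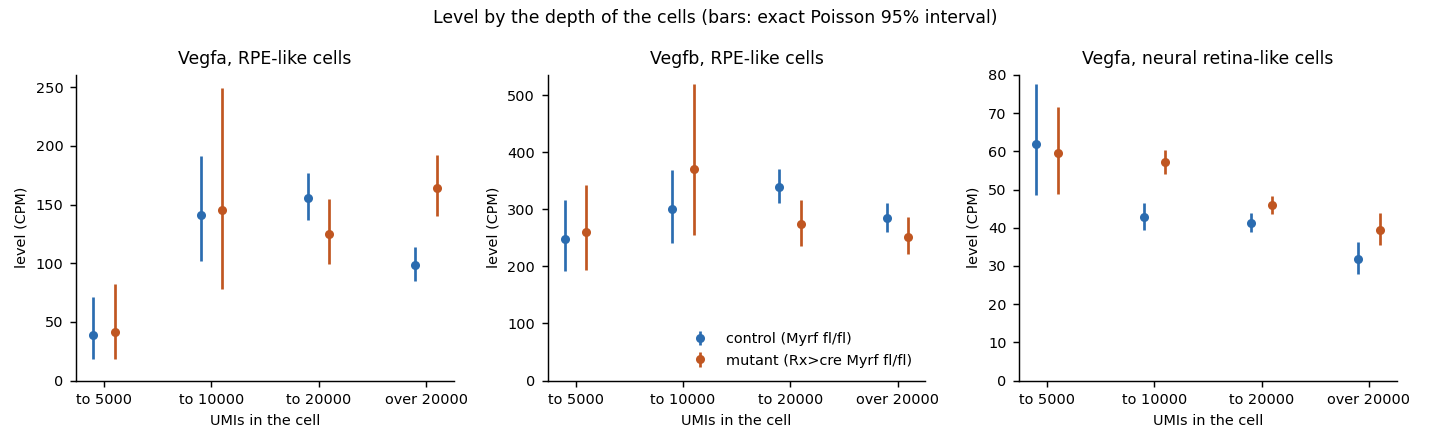
Level (CPM) of Vegfa and Vegfb in RPE-like cells and of Vegfa in neural retina-like cells, grouped by the UMI total of the cell, for control and mutant libraries, with exact Poisson 95% intervals as bars. Vegfa in RPE-like cells of up to 5000 UMIs was 38.8 and 41.6 CPM, below every deeper bin.

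Between the libraries, Vegfa was modestly higher in the mutant in most classes. The mutant level was 1.21 times (1.14 to 1.28) the control level in neural retina-like cells and 1.17 times (1.07 to 1.27) in mesenchyme-like cells. In RPE-like cells the ratio was 1.14 (0.978 to 1.33), an interval that includes 1, and without cells over 20000 UMIs its log2 value turned from 0.19 to -0.34, and at a mitochondrial limit of 5% to -0.15. In endothelial-like cells, with few UMIs, it was 1.23 (0.613 to 2.45). Of 13 classes with enough UMIs, 9 were higher in the mutant and 4 lower, and the interval lay above 1 in 3 and below 1 in none. Among the 5 mesenchyme-like clusters the interval of the log2 ratio lay above 0 in the one led by Nts, with 32.9 CPM in control and 49.3 CPM in mutant, a log2 ratio of 0.58 (0.32 to 0.84). In the other 4 the log2 ratio was between 0.030 and 0.17, with intervals that include 0. Over all kept cells Vegfa was 33.8 CPM in control and 39.8 CPM in mutant. When the neural retina-like cells were limited to those holding Xist UMIs but none from the Y chromosome, the log2 ratio was 0.40, against 0.27 in all.

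Vegfb, whose product binds VEGFR1, was also highest in RPE-like cells, at 305 CPM (1165 UMIs) in control and 266 CPM (509 UMIs) in mutant. Unlike Vegfa, it was nearly as high in melanocyte-like cells, at 257 and 230 CPM. The RPE-like level was 1.19-fold (1.01 to 1.40) that of melanocyte-like cells in the control and 1.16-fold (0.932 to 1.45) in the mutant. The RPE-like level was 4.32-fold the neural retina-like one in the control and 3.79-fold in the mutant, where neural retina-like cells held 70.6 and 70.1 CPM.

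Muscle-like cells (105 and 106 CPM) and retinal progenitor-like cells (96.6 and 97.6 CPM) did not differ in Vegfb beyond counting error. Endothelial-like cells held 28.3 and 29.0 CPM, the lowest of the classes apart from erythroid-like cells at 4.17 and 2.27 CPM. Reduced to 2000 UMIs a cell, Vegfb was found in 43.6% (control) and 40.3% (mutant) of the RPE-like class. The mutant over control ratio was 0.873 (0.785 to 0.970) in RPE-like cells and 0.863 (0.813 to 0.917) in mesenchyme-like cells, and 0.994 in neural retina-like cells. These ratios all lay inside 1.5-fold. With cells over 2000 UMIs removed, the neural retina-like log2 ratio was 1.78, from 3 and 16 UMIs. The RPE-like one turned from -0.20 to 0.042, also from few UMIs.

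Vegfc, the lymphatic growth factor, had no class far above the rest. Melanocyte-like cells led with 33.2 CPM in control and 42.2 CPM in mutant, from 23 and 18 UMIs. Endothelial-like (14.2 and 19.4 CPM), RPE-like (16.7 and 12.02 CPM) and mesenchyme-like cells (14.6 and 13.9 CPM) followed and overlapped from each to the next. Retinal progenitor-like cells were apart below these at 5.26 and 4.84 CPM. Mesenchyme-like cells were 4.02-fold the neural retina-like level in control and 4.11-fold in mutant. The mutant over control ratio was 0.718 (0.425 to 1.17) in RPE-like cells, 1.37 (0.810 to 2.30) in endothelial-like cells and 0.951 in mesenchyme-like cells, none with an interval that leaves out 1. No Vegfc UMI was found in control erythroid-like cells and the mutant level there was 0.142 CPM.

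Pgf, a ligand of VEGFR1, was highest in mesenchyme-like cells. Mesenchyme-like cells held 37.6 CPM (1318 UMIs) in control and 34.2 CPM (895 UMIs) in mutant, which was 61.2% and 54.0% of all Pgf UMIs. RPE-like cells held 21.2 and 24.6 CPM and muscle-like cells 23.0 and 18.3 CPM, and these did not differ beyond counting error. In the mutant, the intervals of mesenchyme-like and RPE-like cells also overlapped. Neural retina-like cells held 3.90 and 4.78 CPM, so the mesenchyme-like level was 9.65-fold theirs in control and 7.16-fold in mutant. The mutant over control ratio was 0.909 (0.834 to 0.990) in mesenchyme-like cells, 1.16 (0.792 to 1.68) in RPE-like cells and 1.22 (1.02 to 1.48) in neural retina-like cells. Its clusters went both ways. The ratio was below 1 in the clusters led by Nts (0.862, interval 0.769 to 0.967), Spp1 (0.901) and Scx (0.764). It was above 1 in those led by Kera (1.64, from 18 and 27 UMIs) and Osr2 (1.43, from 34 and 28 UMIs). Of these 5 intervals, 4 included 1. The mesenchyme-like value turned to a log2 difference of 0.10 without cells over 20000 UMIs, and was -1.19 with cells over 2000 UMIs removed, from 4 and 3 UMIs.

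The ligands were not spread evenly over the 5 mesenchyme-like clusters, here called by their leading genes. Pgf was 105 and 90.7 CPM in the cluster led by Nts and Cxcl12 and 74.7 and 67.3 CPM in that led by Spp1 and Mgp. In the cluster led by Matn4 and Kera, the latter a corneal stroma proteoglycan, it was 1.89 and 3.104 CPM, so that the Nts cluster was 55.6-fold (34.9 to 94.4) higher in control and 29.2-fold (19.8 to 44.7) in mutant. Kdr ran the other way, at 85.3 and 88.4 CPM in the Kera cluster against 15.2 and 12.6 CPM in the Nts cluster, a ratio of 5.62 in control and 7.02 in mutant. Vegfc was highest in the cluster led by Scx, a tendon gene, at 20.7 and 23.3 CPM, with intervals that overlapped those of the cluster led by Mfap5 and Osr2 (19.6 and 18.1 CPM) in both libraries. It was lowest in the Spp1 cluster. The clusters were built without the members, and the order of the 5 clusters by Pgf and by Kdr was the same in both libraries.

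**Figure D3:**
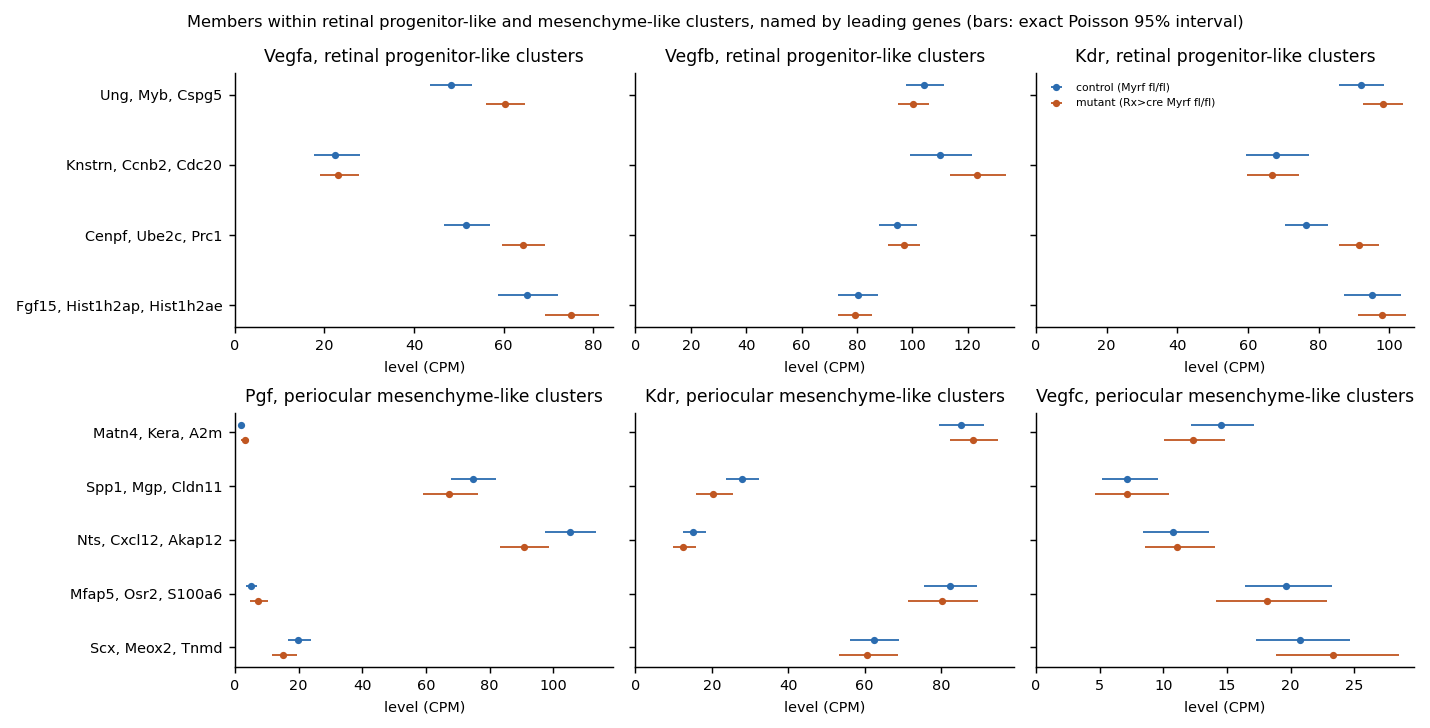
Levels (CPM) of family members in retinal progenitor-like and mesenchyme-like clusters, each called by its leading genes, for control and mutant, with exact Poisson 95% intervals as bars. In mesenchyme-like clusters Pgf was highest where Kdr was lowest, at 105 and 15.2 CPM in the control Nts cluster.

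Kdr, encoding VEGFR2, was highest in endothelial-like cells at 528 CPM (1192 UMIs) in control and 510 CPM (844 UMIs) in mutant. It was also present at a lower level in retinal progenitor-like cells, at 84.8 and 91.8 CPM, and in mesenchyme-like cells, at 57.6 and 56.4 CPM. Neurogenic progenitor-like cells held 35.3 and 43.3 CPM, and each of these first 4 places in the order was apart from the next in both libraries. Endothelial-like cells stood 9.49-fold (8.85 to 10.2) above neural retina-like cells in the control and 8.19-fold (7.59 to 8.82) in the mutant. RPE-like cells held 7.84 and 6.79 CPM, from 30 and 13 UMIs, and erythroid-like cells 3.93 and 2.13 CPM.

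Endothelial-like cells were few, so their share of the Kdr UMIs was 18.6% (control) and 12.2% (mutant), while neural retina-like cells gave 41.6% and 59.0%. Reduced to 2000 UMIs a cell, Kdr was found in 60.6% (51.3 to 69.1) of control and 57.9% (48.1 to 67.7) of mutant endothelial-like cells, and unreduced in 72.8% and 79.5%. The reduced share was 15.7% and 16.6% in retinal progenitor-like cells and 9.41% and 8.89% in mesenchyme-like cells. In RPE-like cells it was 1.16% (0.252 to 3.52) and 1.28% (0.196 to 5.70), from about 3 and 2 cells, with 0.514% and 0.323% in erythroid-like cells. On the CPM scale, the RPE-like and erythroid-like intervals overlapped in the control (5.29 to 11.2 against 2.69 to 5.54) and did not in the mutant (3.62 to 11.6 against 1.19 to 3.50).

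Within the neural retina, Kdr was higher in both progenitor-like classes than in the neuron-like ones, and Kdr and Vegfa both varied inside the retinal progenitor-like class. The neurogenic cluster led by Pkib and Dll3 was an exception for Kdr. It held 6.11 and 12.8 CPM, against 10.6 and 14.2 CPM in retinal ganglion cell-like cells. The progenitor cluster led by Fgf15 and the replication histones Hist1h2ap and Hist1h2ae held 65.2 and 75.2 CPM of Vegfa, and that led by the mitotic genes Knstrn, Ccnb2 and Cdc20 held 22.3 and 23.0 CPM. The ratio of the first to the second was 2.93 (2.28 to 3.80) in control and 3.27 (2.67 to 4.04) in mutant. For Kdr, the same ratio was 1.40 (1.20 to 1.64) and 1.46 (1.29 to 1.67), and for Vegfb it was below 1, at 0.730 (0.636 to 0.838) and 0.642 (0.574 to 0.719). Between these clusters Vegfa and Kdr were higher and Vegfb lower in the histone cluster, in both libraries. The progenitor cluster led by Cenpf and Ube2c, also mitotic genes, held 51.6 and 64.3 CPM of Vegfa, and that led by Ung and Myb held 48.2 and 60.3 CPM, so only 1 of the clusters led by mitotic genes was low in Vegfa. Kdr was 76.4 and 91.3 CPM in the Cenpf cluster and 92.0 and 98.2 CPM in the Ung cluster.

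Kdr in the mutant was 1.12-fold (1.07 to 1.18) the control level in neural retina-like cells, 0.967-fold (0.885 to 1.06) in endothelial-like cells and 0.978-fold in mesenchyme-like cells. Without cells holding markers of other classes, the neural retina-like log2 ratio turned from 0.16 to -0.11, with 439 and 444 UMIs left. The ratio varied among neural retina-like clusters. In the neurogenic cluster led by Gal and Insm2, Kdr was 27.6 CPM (83 UMIs) in control and 50.4 CPM (163 UMIs) in mutant, a ratio of 1.83 (1.39 to 2.41), and Vegfa there was 30.9 and 46.1 CPM, a ratio of 1.49 (1.14 to 1.95). In amacrine or horizontal-like cells Kdr was 8.67 and 17.8 CPM, a ratio of 2.05 (1.34 to 3.22). In the neurogenic cluster led by Pkib and Dll3 it was 6.11 and 12.8 CPM from 11 and 36 UMIs, a ratio of 2.09 (1.04 to 4.56). In the neurogenic cluster led by Neurog2 and Atoh7, Kdr was 51.2 and 52.3 CPM. These clusters were picked out after their values were seen, and the difference between them was not tested.

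Flt1, encoding VEGFR1, was nearly confined to endothelial-like cells in its UMIs. They held 387 CPM (875 UMIs) in control and 418 CPM (691 UMIs) in mutant and gave 86.9% and 83.3% of all Flt1 UMIs. Neural retina-like cells held 0.960 and 1.26 CPM, so the endothelial-like level was 404-fold (300 to 555) theirs in the control and 331-fold (263 to 421) in the mutant. RPE-like cells held 2 UMIs in each library, too few for a ratio. The mutant over control ratio was 1.08 (0.975 to 1.19) in endothelial-like cells. Reduced to 2000 UMIs a cell, Flt1 was found in 52.1% and 52.8% of endothelial-like cells, against 0.235% and 0.237% of neural retina-like cells.

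Flt4, encoding VEGFR3, was found at 62.9 CPM (142 UMIs, 53.0 to 74.1) in control and 78.0 CPM (129 UMIs, 65.1 to 92.7) in mutant endothelial-like cells, 84.5% and 81.1% of its UMIs. The ratio of 1.24 (0.970 to 1.59) had an interval that included 1, and its log2 value of 0.31 became -0.17 at a mitochondrial limit of 5%. The reduced share of cells was 12.8% (7.56 to 20.1) and 17.0% (10.5 to 25.7). Of the lymphatic genes beside it, Lyve1 had 2 and 0 UMIs and Prox1 had 13 and 10 UMIs in endothelial-like cells, so the lymphatic markers were near 0 there. Outside endothelium Flt4 was sparse, with 15 UMIs in control and 21 UMIs in mutant mesenchyme-like cells, and 1 and 6 UMIs in neural retina-like cells. The endothelial marker Pecam1 had 11 and 21 UMIs in mesenchyme-like cells, and the part of endothelial RNA in the Flt4 values there was not tested.

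The receptors were often found in the same endothelial-like cells. At least 1 of the 3 had a UMI in 132 of the 169 cells in control and 112 of the 132 in mutant, and both Kdr and Flt1 in 112 and 91. The cells with none of them were shallow, with median depths of 836 UMIs in control and 1047 UMIs in mutant, against 12330 and 12579 UMIs in the cells with a receptor. Reduced to 2000 UMIs a cell, Flt1 was found in 59.2% of control cells with Kdr and 41.0% of those without it, and in 57.9% and 45.9% of mutant cells.

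**Figure D4:**
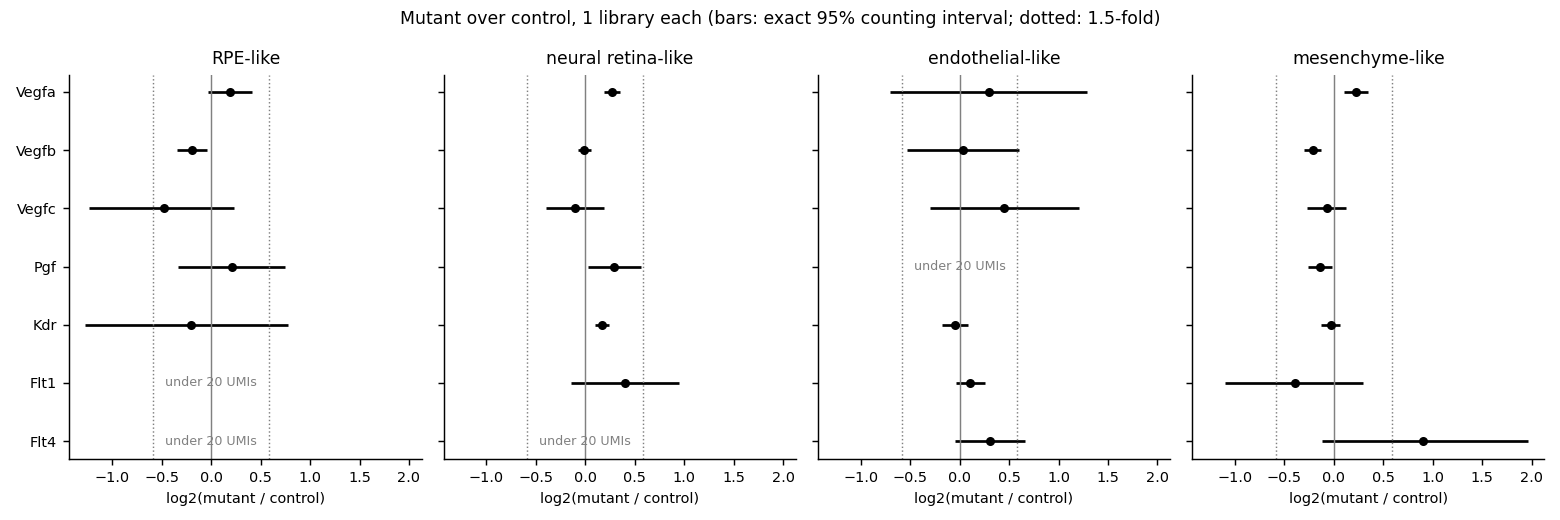
The log2 ratio of mutant to control level for each family member in RPE-like, neural retina-like, endothelial-like and mesenchyme-like cells, with exact 95% counting intervals as bars and dotted lines at 1.5-fold. Only Flt4 in mesenchyme-like cells lay past 1.5-fold among members with at least 20 UMIs, and its interval (0.921 to 3.91) includes 1.

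Of members with at least 20 UMIs over both libraries, 1 lay past 1.5-fold between the genotypes, Flt4 in mesenchyme-like cells at 1.87-fold (0.921 to 3.91). In RPE-like cells 0 of 5 measured members were past 1.5-fold, where 4.84% of all genes were higher and 9.51% lower in the mutant by that size. In neural retina-like cells it was 0 of 6, against 3.03% of genes higher and 2.53% lower. In endothelial-like cells it was 0 of 6, against 6.75% higher and 6.14% lower. In mesenchyme-like cells it was 1 of 7 higher and 0 lower, against 6.02% and 2.7% of genes. The median log2 ratio of the measured members was -0.20 in RPE-like, 0.22 in neural retina-like, 0.20 in endothelial-like and -0.07 in mesenchyme-like cells, beside medians over all genes between -0.08 and -0.01. With a minimum of 50 UMIs it was -0.0018 over 4 members in RPE-like and 0.11 over 5 in endothelial-like cells.

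The co-receptors followed the receptors into endothelium but were broader. Nrp1 was 228 CPM in control and 238 CPM in mutant endothelial-like cells, a ratio of 1.05, and 206 and 146 CPM in melanocyte-like cells, a ratio of 0.705 (0.515 to 0.956). Immune-like cells held 118 and 111 CPM and Schwann cell-like cells 94.2 and 81.1 CPM. Retinal ganglion cell-like cells, whose axons Nrp1 helps guide, held 79.4 and 69.2 CPM, against 13.2 and 11.5 CPM over the neural retina-like cells. In mesenchyme-like cells Nrp1 was 60.7 and 70.4 CPM, a ratio of 1.16 (1.09 to 1.24), but its clusters went both ways. Nrp1 was lower in the mutant in the Kera cluster, at 86.4 and 70.8 CPM, a ratio of 0.819 (0.737 to 0.910). It was higher in the Nts cluster, at 80.2 and 109.7 CPM, a ratio of 1.37 (1.22 to 1.54), and in the clusters led by Osr2 (1.42) and by Spp1 (1.21). In RPE-like cells it was 7.32 and 11.5 CPM, a ratio of 1.57 (0.856 to 2.85) from 28 and 22 UMIs. Nrp2 was 189 and 199 CPM in endothelial-like cells, 126 and 131 CPM in melanocyte-like cells and 101 and 94.7 CPM in mesenchyme-like cells.

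Genes of the wider pathway mostly stayed within 1.5-fold too. Of the 23 genes of receptor signalling, 20 were measured in RPE-like cells and 3 were past 1.5-fold lower in the mutant, where 9.51% of all genes were lower by that size. These included Plcg1, which encodes the phospholipase bound by activated VEGFR2, at 19.4 and 12.5 CPM, a ratio of 0.648 (0.391 to 1.04). Shb, an adaptor of VEGFR2, was 12.3 and 7.84 CPM there, a ratio of 0.638 (0.331 to 1.16). The third was Sphk1, which encodes a sphingosine kinase, at 8.11 and 4.70 CPM from 31 and 9 UMIs. In neural retina-like cells 22 were measured and 0 were past 1.5-fold, in endothelial-like cells 19 were measured with 1 higher and 1 lower, and in mesenchyme-like cells 22 with 1 higher. Over all genes, 3.03% were higher and 2.53% lower by that size in neural retina-like cells, and 6.75% and 6.14% in endothelial-like cells. In mesenchyme-like cells 6.02% were higher, so these counts lay near the background. The endothelial-like ones were Shb, at 17 and 24 UMIs, and the kinase gene Src, at 22 and 10 UMIs. These and Sphk1 had under 50 UMIs and are named after their values were seen. The mesenchyme-like one was the kinase gene Prkcb, at 1.77 and 2.98 CPM, a ratio of 1.68 (1.19 to 2.39). The small GTPase genes Cdc42 and Rac1 were the highest of the lists in endothelial-like cells, at 719 and 691 CPM for Cdc42 and 375 and 381 CPM for Rac1.

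The other vessel receptors and ligands of the list, which act beside VEGF in vessel growth, are 10 genes. In mesenchyme-like cells 8 were measured, 3 lay past 1.5-fold higher in the mutant and all 8 were above 0 on the log2 scale, with a median of 0.41. Over all genes of these cells, 6.02% were higher by that size and the median was -0.01. In the same cells, control and mutant, Pecam1 was at 0.314 and 0.803 CPM (11 and 21 UMIs), the endothelial list at 69.6 and 78.3 CPM and the retinal progenitor list at 497 and 743 CPM, and their part in these ratios was not tested. Among them was Jag1, a Notch ligand, at 11.8 and 17.8 CPM, a ratio of 1.51 (1.32 to 1.73), and the receptor phosphatase gene Ptprb at 0.657 and 1.11 CPM, a ratio of 1.69 (0.943 to 3.05). The third was the Notch ligand gene Dll4, which is also in the tip cell list, with 11 and 20 UMIs. In RPE-like cells 6 were measured with 1 higher and 1 lower, against 4.84% and 9.51% of all genes. Jag1 was 9.67 CPM in control and 16.7 CPM in mutant there, a ratio of 1.73 (1.04 to 2.85), and the growth factor gene Pdgfb had 31 and 8 UMIs, a ratio of 0.516 (0.205 to 1.15). In endothelial-like cells 7 were measured and 0 were past 1.5-fold, and in neural retina-like cells 0 of 7 were, counts too small to be set apart from the 6.75% higher and 6.14% lower of all endothelial-like genes and the 3.03% and 2.53% of neural retina-like ones. Dll4 and Pdgfb had under 50 UMIs and are named after their values were seen.

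Tip cell genes mark the endothelial cells that lead a sprout. Of 5 measured in endothelial-like cells, 1 was past 1.5-fold, Esm1, a secreted proteoglycan of tip cells, at 16.8 CPM (38 UMIs) in control and 8.47 CPM (14 UMIs) in mutant, a ratio of 0.503 (0.252 to 0.950), where 6.14% of all genes were lower by that size. The other 4 measured were above 0 on the log2 scale. In mesenchyme-like cells 4 were measured and all 4 were above 0, with a median log2 ratio of 0.36 against -0.01 over all genes, and 1, Dll4, was past 1.5-fold, against 6.02% of genes. In these cells Pecam1 was at 0.314 and 0.803 CPM and the endothelial list at 69.6 and 78.3 CPM. Their part in the tip cell ratios was not tested. In RPE-like cells 2 were measured, with a median of -0.66 against -0.08, and 1 was past 1.5-fold lower, against 9.51% of genes. That was Esm1, with 20 and 4 UMIs, a ratio of 0.400 (0.0993 to 1.19), named after its values were seen. In neural retina-like cells 0 of 4 were past 1.5-fold, against 3.03% of all genes higher and 2.53% lower. Vegfd, the remaining ligand of VEGFR3, had 52 UMIs in control and 62 UMIs in mutant mesenchyme-like cells, a ratio of 1.60 (1.09 to 2.35), and no UMI in endothelial-like cells. It was also past 1.5-fold higher in neural retina-like cells, from 8 and 19 UMIs, a ratio of 1.73 (0.724 to 4.57), and in RPE-like cells it had 12 and 9 UMIs, with a counting interval of the ratio from 0.558 to 3.88. Over all genes, 6.02% were higher by 1.5-fold in mesenchyme-like cells and 3.03% in neural retina-like cells. The Vegfd values were picked out after they were seen.

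The hypoxia response list holds genes that, like Vegfa, are targets or parts of the hypoxia-inducible factor system. In neural retina-like cells, where the Vegfa ratio was 1.21, 0 of 14 measured were past 1.5-fold, 8 were higher and 6 lower, and the median log2 ratio was 0.06. Over all genes there, 3.03% were higher and 2.53% lower by 1.5-fold and the median was -0.02. In RPE-like cells 1 of 12 was past 1.5-fold higher, Egln3 with 14 and 14 UMIs, against 4.84% of all genes, and the median was -0.19. The glucose transporter gene Slc2a1 at 593 and 608 CPM and Ldha, lactate dehydrogenase, at 473 and 420 CPM were the highest genes of the lists in RPE-like cells. In neural retina-like cells the highest were Ldha at 791 and 806 CPM and Cdc42 at 427 and 405 CPM. In mesenchyme-like cells Cdc42 was 545 and 518 CPM and Ldha 314 and 317 CPM. There 1 of 15 was past 1.5-fold higher, against 6.02% of all genes, Slc2a1 at 19.0 and 30.4 CPM, a ratio of 1.60 (1.44 to 1.78), with the summed retinal progenitor markers of these cells at 497 and 743 CPM. The part of those markers in the Slc2a1 ratio was not tested. In endothelial-like cells 2 of 14 were higher, Egln3 with 15 and 18 UMIs and Bnip3 with 16 and 24 UMIs, against 6.75% of all genes. Egln3 and Bnip3 had under 50 UMIs and are named after their values were seen.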

How the data were processed

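The deposited files were matrices of UMI counts per gene and cell, which the authors made from 10x 3′ reads. The submitters' processing notes name Cell Ranger 7.1.0 and Seurat 4.1.1 and the mm10 genome, while the matrix headers give Cell Ranger software version 3.1.0. The barcodes, 13017 and 13880, are as many as the study states it collected. The count tables were used as deposited, with no other normalization than CPM.

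Cells with under 200 genes or over 15% mitochondrial UMIs were removed, as in the study. Its limit of 2000 UMIs, stated for doublets, was tried only as an alternative, since it leaves 2171 control and 2264 mutant cells. Doublets were called with Scrublet in scanpy 1.11.5. Its automatic threshold called 0 mutant cells, so the control threshold of 0.208 was used for both after the data were seen, which removed 366 of 11942 control cells (3.06%) and 350 of 13018 mutant cells (2.69%). From 2000 variable genes, 1877 were used after the members, markers, mitochondrial and haemoglobin genes had been left out, with 30 principal components, 15 neighbours and Leiden resolution 1. Of 31 clusters, 24 were named. A name needed a marker score of at least 2.5, a limit set after the clusters were seen, a median depth of at least 1/3 of that of all cells, and no more markers of another class than of its own among the 10 leading genes. The 7 unnamed clusters were 4 shallow ones with median depths of 927 to 1438 UMIs, 1 with a low score and 2 with leading genes of another class, of which 1, with 561 control and 407 mutant cells, scored highest for periocular mesenchyme. They held 27.8% of control and 26.0% of mutant cells, so class levels may differ from those of the study's own classes.

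UMIs were summed by class and library. With 1 library per genotype no test was made: CPM has an exact Poisson 95% interval, a ratio an exact conditional binomial one and a share a Clopper-Pearson one. A gene was called past 1.5-fold with at least 20 UMIs over both libraries, and a count of 0 was set to 3 in ratios. Shares at 2000 UMIs a cell are means over all possible draws. The members and lists were chosen with earlier results of these data known. Named genes were the members, Nrp1, Nrp2, the 5 genes most like each member by Pearson correlation of log2(CPM + 10) among genes of at least 100 UMIs, listed pathway genes of at least 50 UMIs past 1.5-fold and the 2 highest in each compartment. Promoters came from RefSeq, in which all 7 members matched. Python 3.11.15, numpy 2.4.6, scipy 1.17.1 and pandas 2.3.3 were used. Ratios and their intervals were tested on simulated counts. The shares were checked only for Kdr, against repeated draws from endothelial-like cells. The alternatives tried are given with their effect in the closing section, and 3 of them were chosen after seeing the data.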

Additional observations from a re-analysis of the deposited data

Results flagged for a closer look

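Vegfb differed in direction between classes. The mutant over control ratio was 2.00 (1.17 to 3.52) in Schwann cell-like cells, from 34.7 CPM to 69.3 CPM, against 0.873 (0.785 to 0.970) in RPE-like cells and 0.863 (0.813 to 0.917) in periocular mesenchyme-like cells. Pgf did so too, at 3.08 (1.23 to 9.20) in retinal ganglion cell-like cells, from 6 and 24 UMIs, and 1.25 (1.02 to 1.53) in retinal progenitor-like cells, against 0.909 (0.834 to 0.990) in periocular mesenchyme-like cells. These were picked out because the counting intervals lay on opposite sides of 1, and with 1 library per genotype the differences were not tested.

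Cells left without a class name also held members of the family, above the level of erythroid-like cells. The 2 clusters below scored above 2.5, for periocular mesenchyme (3.31) and ciliary margin (2.71), but had more markers of another class than of their own among their 10 leading genes. The one led by Spp1, Tagln, Mgp and Rgs5 had a Vegfa level of 27.3 CPM in control and 28.0 CPM in mutant. Its Vegfb level was 86.9 and 67.0 CPM, its Vegfc level 6.12 and 6.93 CPM, its Pgf level 44.7 and 43.3 CPM and its Kdr level 23.5 and 17.7 CPM. The cluster led by Cartpt, Pax2, Zic1 and Zic4 had a Vegfb level of 71.5 and 78.7 CPM and a Vegfc level of 11.9 and 11.4 CPM. In both libraries the lower bound of each of these lay over 2 times the upper bound of erythroid-like cells.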

How the results depend on the processing

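Of the ratios that answer a comparison and the counts, 142 values under the alternatives stayed within the counting interval or within 1.5 times, 40 moved and 4 turned direction, and for single genes beside them 386 stayed, 36 moved and 5 turned. Values below are log2 ratios. Counts of members past 1.5-fold below take a member once for each compartment, and no share over all genes is set beside them. With a mitochondrial limit of 5%, Vegfa between the libraries (mutant over control) was -0.15 in RPE-like cells (0.19 at 15%), Kdr -0.19 and Flt4 -0.17 in endothelial-like cells, Vegfa of RPE-like over neural retina-like cells 0.82 in control and 0.42 in mutant, and Kdr of endothelial-like over neural retina-like cells 2.98 and 2.61. Without cells over 20000 UMIs these were -0.34 for Vegfa in RPE-like cells, 1.71 and 1.11 for Vegfa and 3.38 and 3.22 for Kdr, Pgf in mesenchyme-like cells turned to 0.10, and 2 members were past 1.5-fold. Without cells over 2000 UMIs few UMIs were left (2 to 33 for these values): Vegfa between the libraries was 1.63 in RPE-like and -0.47 in neural retina-like cells, Vegfb 0.042 in RPE-like and 1.78 in neural retina-like cells, Pgf in mesenchyme-like cells -1.19, Flt1 in endothelial-like cells 0.53, Vegfa of RPE-like over neural retina-like cells -2.58 and -0.48, Kdr of endothelial-like over neural retina-like cells 2.16 and 1.96, and 0 members were past 1.5-fold. The count was also 0 with doublets kept, with a minimum of 50 UMIs and with cells reduced to 2000 UMIs, where Pgf in mesenchyme-like cells was 0.0019 and Vegfa of RPE-like over neural retina-like cells in the mutant 1.22. With classes gated cell by cell, Vegfa of RPE-like over neural retina-like cells was 1.82 and 1.97, and with equal weight per cell 1.01 and 0.78. Without the 5 richest cells, the mutant values were 1.26 for Vegfa and 2.92 for Kdr. Without cells holding markers of other classes, Vegfa between the libraries was 0.10 in neural retina-like cells and -1.70 in mesenchyme-like cells (6 and 1 UMIs left), Kdr -0.11 in neural retina-like and 0.30 in endothelial-like cells, and Nrp1 -0.12 in mesenchyme-like cells (4 and 2 UMIs). There no RPE-like Vegfa UMI was left, so that the values of RPE-like over neural retina-like cells with 3 counts in its place, 2.28 and 3.39, are upper limits that say nothing of the direction, though they are counted above as moved. Kdr of endothelial-like over neural retina-like cells was 3.60 and 4.00, and 2 members were past 1.5-fold. In cells holding Xist UMIs but none from the Y chromosome, Vegfa between the libraries was 0.40 in neural retina-like cells, Vegfa of RPE-like over neural retina-like cells in the mutant 1.26, and 3 members were past 1.5-fold. Of the 35 pairs of a member and a gene most like it, 4 were shared under Spearman and 20 under log2(CPM + 1). Where fewer cells or UMIs do not account for it by construction, the cause was not tested. Leiden resolutions of 0.5 and 2, subtraction of free RNA, a 0 set to 1, and the alternatives chosen after seeing the data (without barcodes found in both libraries, and totals without haemoglobin or without collagen UMIs) moved none of the main ratios. The free RNA subtracted was only 0.386% to 0.658% of the UMIs of a compartment. It could hardly move a ratio, so it says little about stray RNA. No paired analysis was possible because each genotype is 1 library.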

Other observations

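The pattern of each member over the 14 classes of both libraries (28 points, which share libraries and depth) was set beside that of 15176 genes, as a description. Vegfa was most like Cldn12 (Pearson's r of 0.88), Irak1bp1, Cyp1b1, Bckdhb and 1190002N15Rik, and Vegfb most like Acot13 (0.93), Cd63, Htra2, Eci1 and Chpt1. Vegfc was most like Ddah1 (0.90), Atp11a, St6galnac3, Fam174b and Sfmbt2, and Pgf most like Islr (0.94), Pcolce, Scara5, Ogn and Sdc2. Kdr was most like Rasd1 (0.91), Bambi, Pkn3, Tmem255a and Efcc1. Flt1 was most like Pcdh12, Adgrl4, C130074G19Rik, Tmem252 and Clec1a, and Flt4 most like Thsd1, Sox18, Clec1a, Tmem252 and Gpr182. Among the members, Flt1 and Flt4 were closest to each other by Pearson's r (0.992), with Kdr at 0.816 to Flt1, and Vegfa and Vegfb at 0.658, while Vegfa and Flt1 were at -0.23. The values of the receptors are led by the endothelial-like points. By Spearman's rho over the same points, Flt1 and Flt4 were at only 0.226, Flt1 was closer to Kdr (0.548), the highest pair was Vegfb and Pgf (0.595), and Vegfa and Flt1 turned to 0.10. Under it 0 of the 5 genes named for Vegfa remained among its 5 most alike, and the same held for Vegfc, Pgf, Flt1 and Flt4.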
